A study of Mus musculus with 8 samples.

Results

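Pericyte marker genes were compared between lung cells with a high and lung cells with a low signal of a protease-sensitive probe. The group consists of 10 genes used to recognise pericytes, Cd248, Mcam, Cspg4, Des, Nes, Rgs5, Kcnj8, Abcc9, Trpc6 and Higd1b. They were taken by name from the 27179 genes of the deposited count table, and all 10 were found in it. Every one had enough counts to be tested among 15583 genes. Of the 10, 6 were significantly higher in the cells with high probe signal and none was significantly lower.

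Pericytes are mural cells that lie within the basement membrane of capillaries, in contact with the endothelium, and that stabilise vessels and regulate their tone. They depend on platelet-derived growth factor from endothelial cells, which they sense through the receptor encoded by Pdgfrb. No single gene defines them, and they are recognised by combinations of surface proteins, filament proteins, signalling regulators and ion channels. Several of these genes are also used by neighbouring cells: Cd248 by fibroblasts, Des by smooth and striated muscle, and Nes and Mcam by endothelial cells.

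The cells came from lungs of C57BL/6 mice with the Eml4-Alk rearrangement, a model of lung adenocarcinoma in which an adenovirus carrying Cas9 and guides is given into the airway. Mice were 18 to 22 weeks old and 11 to 12 weeks past tumor induction. All received 4.5 nmol of QZ1-(PEG2K) by tail vein 2 h before the lungs were taken. QZ1 is a quenched Cy5 probe that lights up when proteases cut its S1 linker. Live cells stained negative for CD45 and CD11b were sorted into a QZ1-hi and a QZ1-lo population, and 4 libraries of each were sequenced as biological replicates. Both populations therefore share genotype, tumor stage and probe, and neither healthy mice nor mice without probe were part of this comparison. The labels do not say which QZ1-hi and QZ1-lo libraries came from the same mouse. Because the libraries are bulk samples, fewer cells of a type and less RNA per cell cannot be told apart.

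Total counts ranged from 18380918 to 26847938 per library. Mitochondrial and ribosomal RNA genes took 43.7% to 65.6% of the counts in QZ1-hi and 34.0% to 53.2% in QZ1-lo. With those genes removed, 6 members were again called higher. Levels are given as CPM, the counts of a gene relative to the total of its library after scaling by the trimmed mean of M values (TMM). Values of 3 counts or fewer were taken as the detection floor, which lay at 0.0894 to 0.179 CPM. Fold changes are log2 values of QZ1-hi relative to QZ1-lo with their standard error (SE), and adjusted p values are from edgeR's quasi-likelihood test over all genes tested, with a threshold of 0.05.

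The 6 members called higher were Abcc9, Cd248, Kcnj8, Nes, Des and Trpc6. Over all genes tested, 9.88% were called higher and 8.21% lower. The median log2 fold change was 2.60 over the 10 members and 0.02 over all genes tested. All 10 had a positive fold change, as did 52.2% of all genes tested, and all 10 were higher at an unadjusted p under 0.05, as were 15.4% of all genes tested. DESeq2 and limma each called 6 members higher, against 11.6% and 10.9% of all genes tested, and 0 members were called lower by edgeR, DESeq2 or limma or were lower at an unadjusted p under 0.05. The shares of all genes lower were 10.3% with DESeq2, 8.27% with limma and 13.5% at an unadjusted p under 0.05. In 8 members every QZ1-hi library lay above every QZ1-lo library, which was the case for 11.9% of all genes tested. The study itself named Cd248 and Des from these same libraries, and all 10 members were chosen with earlier results of these data known. The direction of the members is therefore not independent evidence for the group. Each of the 6 remained called when any 1 library was left out.

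**Figure D1:**
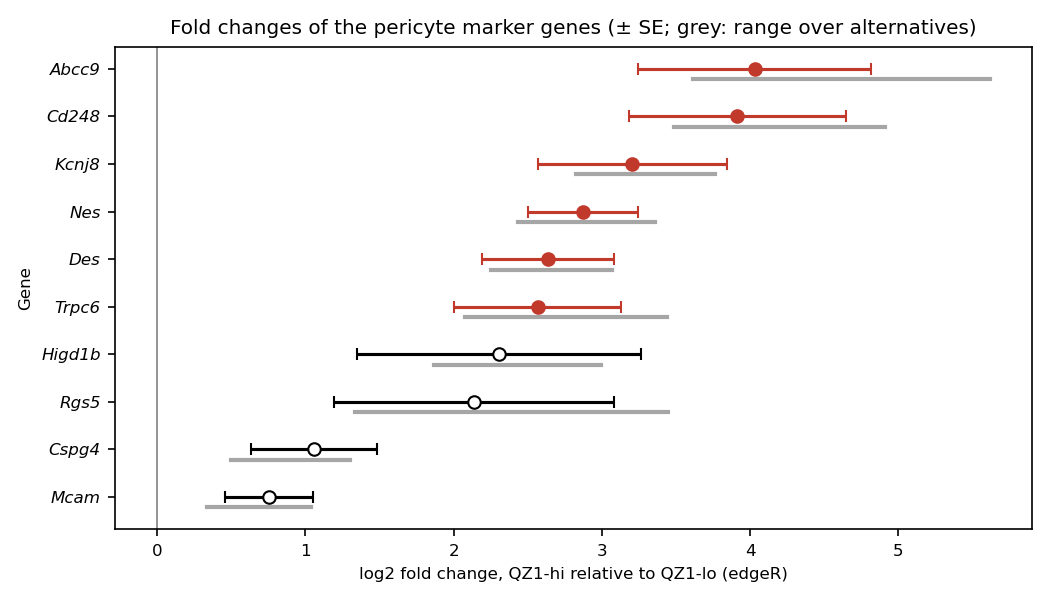
Log2 fold change of each pericyte marker gene (horizontal axis, QZ1-hi relative to QZ1-lo, 4 libraries each). Circles are edgeR estimates with bars of 1 SE, red where the adjusted p was under 0.05 and open where it was not, and the grey line under each spans the estimates under all alternative settings. Abcc9 lies highest at 4.03 and Mcam lowest at 0.76, and no grey line reaches 0.

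The surface markers were considered first. Cd248 encodes endosialin, a C-type lectin-like transmembrane glycoprotein of the stroma, in a single exon at chr19:5068078-5070682 (mm10, plus strand). Its level was 41.5, 75.9, 129 and 56.3 CPM in QZ1-hi replicates 1 to 4 and 2.21, 8.22, 9.41 and 0.246 CPM in QZ1-lo replicates 1 to 4. The groups did not overlap, and QZ1-lo replicate 4, with 6 counts, lay far below the other QZ1-lo libraries. Cd248 was 15.1-fold higher in QZ1-hi, a log2 fold change of 3.91 ± 0.73 (SE), with an adjusted p of 0.00357 in edgeR. It held rank 71 of all 15583 genes ordered from the largest rise. The estimate was 4.91 with limma-voom, which weights libraries by quality.

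Cspg4 encodes the NG2 proteoglycan, a classical pericyte antigen, at chr9:56865033-56899870 (plus strand). Levels of 8.69, 7.26, 6.30 and 11.4 CPM were measured in QZ1-hi and of 5.78, 1.10, 5.36 and 3.85 CPM in QZ1-lo. The groups did not overlap, but QZ1-lo replicates 1 and 3 came close to the lowest QZ1-hi library. The log2 fold change of 1.06 ± 0.43 did not pass the test across genes, with an adjusted p of 0.119 in edgeR. On the log2 CPM of this gene alone, the two-sided exact permutation p was 0.0286, the smallest that 4 libraries against 4 allow. With scaling by library size alone the groups overlapped, with a lowest QZ1-hi level of 5.48 CPM and a highest QZ1-lo level of 7.82 CPM.

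Mcam encodes the adhesion molecule CD146, shared by pericytes and endothelium, at chr9:44134469-44142727 (plus strand). QZ1-hi libraries held 111, 56.5, 106 and 52.9 CPM and QZ1-lo libraries 73.9, 32.4, 43.3 and 43.3 CPM. QZ1-lo replicate 1 lay above QZ1-hi replicates 2 and 4, so the groups overlapped. The log2 fold change was 0.76 ± 0.30, with an adjusted p of 0.111 in edgeR, and the two-sided exact permutation p was 0.143. Without QZ1-lo replicate 1 it was 1.04 with an adjusted p of 0.0316 in edgeR, which passed the threshold. Mcam was the member with the highest level in QZ1-lo and the smallest fold change.

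**Figure D2:**
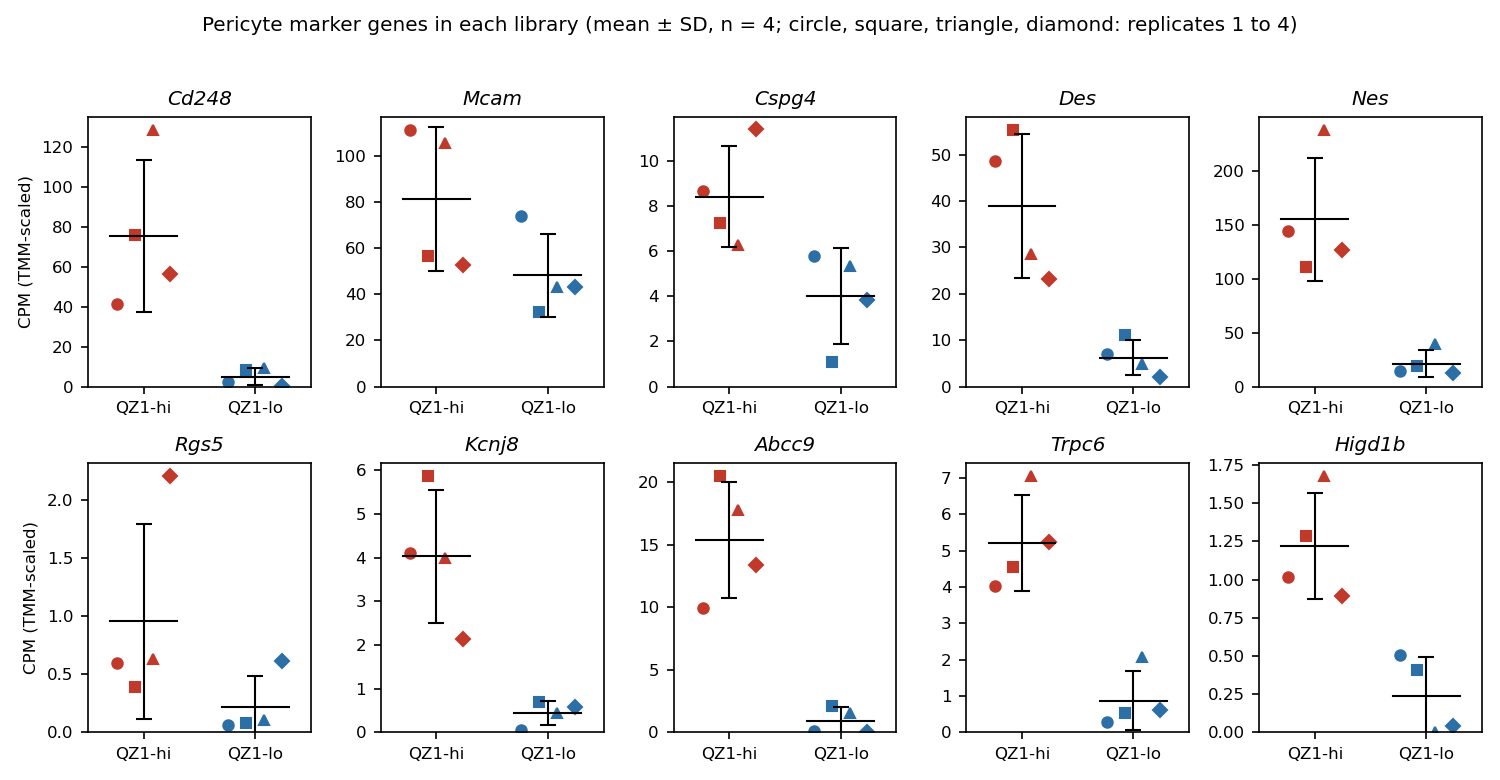
Level of each pericyte marker gene in CPM (vertical axes, linear and starting at 0, each panel with its own scale) in the 4 QZ1-hi (red) and 4 QZ1-lo (blue) libraries. Symbols mark replicates 1 to 4, numbered within each population because the labels give no pairing, and lines show mean ± SD. In all panels but those of Mcam and Rgs5 the red symbols lie above the blue ones.

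Both intermediate filament genes were higher in QZ1-hi. Des encodes desmin, the muscle-type intermediate filament that pericytes share with smooth muscle, at chr1:75360329-75368579 (plus strand). Levels in QZ1-hi were 48.6, 55.4, 28.7 and 23.1 CPM, and levels in QZ1-lo were 7.01, 11.1, 4.78 and 2.09 CPM. The 2 populations were separated, and QZ1-hi replicates 1 and 2 were the highest. The rise was 6.23-fold, with a log2 fold change of 2.64 ± 0.44 and an adjusted p of 0.00195 in edgeR. Over 5.86% of its exonic length Des overlaps a gene on the opposite strand (Gm15179), and the strand setting of the counting is not given in the sources used here.

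Nes encodes nestin, an intermediate filament of progenitor cells that is also used by pericytes and by capillary endothelium, at chr3:87971078-87980451 (plus strand). It was measured at 144, 111, 238 and 127 CPM in QZ1-hi and at 13.98, 18.8, 39.2 and 12.6 CPM in QZ1-lo. Replicate 3 was the highest library in each population, and the groups did not overlap. Nes was 7.33-fold higher in QZ1-hi, with a log2 fold change of 2.87 ± 0.37, and its adjusted p of 0.000552 in edgeR was the lowest of the 10 members.

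Rgs5 was barely detected. It encodes a GTPase-activating protein that ends signalling by G protein-coupled receptors, and it is among the most abundant transcripts of pericytes in many organs. The gene lies at chr1:169655501-169695813 (plus strand). Its libraries held 14, 8, 11 and 37 counts in QZ1-hi and 2, 2, 3 and 15 counts in QZ1-lo, equal to 0.593, 0.395, 0.636 and 2.20 CPM and to 0.0596, 0.0814, 0.109 and 0.614 CPM. Replicate 4 was the highest of each population, 3 of the 4 QZ1-lo libraries were at or under the floor of 3 counts, and the groups overlapped. The log2 fold change of 2.14 ± 0.94 did not pass the test, with an adjusted p of 0.159 in edgeR and a two-sided exact permutation p of 0.0857. This value rested on single libraries: it was 1.34 without QZ1-hi replicate 4, and it was 3.45 without QZ1-lo replicate 4, where the adjusted p of 0.0481 in edgeR passed the threshold.

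Kcnj8 and Abcc9 encode the pore and the regulatory subunit of the ATP-sensitive potassium channel of vascular mural cells, which couples energy supply to vessel tone. They are neighbours on the minus strand of chromosome 6, Kcnj8 at chr6:142564837-142571614 and Abcc9 at chr6:142587862-142702315. Their promoters, from 250 bases before to 50 after the start, are shown because both neighbours were higher in QZ1-hi. Within populations, their log2 CPM centred on each population mean had a Pearson r of 0.464 over the 8 libraries. The promoter of Trpc6, a further channel gene, is shown with them because it held the only other match to a searched motif. Sequences are from RefSeq on GRCm38.p6 at chr6:142571565-142571864 (minus strand) for Kcnj8, chr6:142702225-142702524 (minus strand) for Abcc9 and chr9:8543892-8544191 (plus strand) for Trpc6, each written 5′ to 3′ on the strand of the gene, with matches in capitals.
Kcnj8: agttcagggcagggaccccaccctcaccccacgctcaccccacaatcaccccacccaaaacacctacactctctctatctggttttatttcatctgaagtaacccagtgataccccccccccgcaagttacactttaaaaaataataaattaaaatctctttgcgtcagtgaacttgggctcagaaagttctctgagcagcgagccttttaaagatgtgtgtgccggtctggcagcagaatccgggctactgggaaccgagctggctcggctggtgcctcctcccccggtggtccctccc
Abcc9: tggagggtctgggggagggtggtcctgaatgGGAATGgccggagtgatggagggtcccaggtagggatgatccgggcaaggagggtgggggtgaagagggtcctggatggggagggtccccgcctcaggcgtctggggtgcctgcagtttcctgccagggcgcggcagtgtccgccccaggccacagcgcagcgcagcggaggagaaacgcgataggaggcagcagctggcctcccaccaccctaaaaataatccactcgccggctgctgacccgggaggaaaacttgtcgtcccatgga
Trpc6: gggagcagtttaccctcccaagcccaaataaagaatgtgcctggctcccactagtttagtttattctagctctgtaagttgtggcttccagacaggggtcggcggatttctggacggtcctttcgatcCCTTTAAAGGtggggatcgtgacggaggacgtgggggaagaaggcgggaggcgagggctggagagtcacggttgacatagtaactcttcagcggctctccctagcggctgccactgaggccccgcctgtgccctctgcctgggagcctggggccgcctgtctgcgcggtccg

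Promoters of 8 of the 10 members were in the RefSeq table used here, and Cd248 and Higd1b had no entry. Both strands were searched for CATTCC (bound by TEAD factors), GTGGGAA (bound by RBPJ, the nuclear partner of Notch), TGTTTAC (bound by FOX factors) and the CArG box (bound by serum response factor, which drives smooth muscle genes). Abcc9 held CATTCC on the reverse strand at position -219 from its start, so that it reads GGAATG above, and Trpc6 held a CArG box at position -122. The other 6 promoters held none of these letters. Among all 27025 promoters of the table, CATTCC was found in 14.6%, GTGGGAA in 6.39%, TGTTTAC in 3.55% and a CArG box in 1.57%. A match is a description of the sequence only.

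Kcnj8 levels were 4.11, 5.88, 3.99 and 2.15 CPM in QZ1-hi and 0.0596, 0.692, 0.434 and 0.573 CPM in QZ1-lo. No QZ1-lo library reached the lowest QZ1-hi library, and QZ1-lo replicate 1 lay under the floor of 3 counts. The gene was 9.23-fold higher in QZ1-hi, with a log2 fold change of 3.21 ± 0.64 and an adjusted p of 0.00498 in edgeR.

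Abcc9 showed the largest fold change of the 10 members. It was found at 9.96, 20.5, 17.7 and 13.3 CPM in QZ1-hi and at 0.0894, 2.12, 1.56 and 0.0409 CPM in QZ1-lo, where replicates 1 and 4 lay at or under the floor. The log2 fold change was 4.03 ± 0.79 (16.3-fold, rank 55 of 15583), with an adjusted p of 0.00459 in edgeR. QZ1-lo replicates 2 and 3 lay above replicates 1 and 4. Over the alternatives the estimate ranged from 3.61 with scaling by library size alone to 5.62 with limma-voom, was 4.77 without QZ1-lo replicate 2, and passed the threshold each time it was tested.

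Trpc6 encodes a cation channel opened by diacylglycerol downstream of receptors, at chr9:8544142-8680741 (plus strand). QZ1-hi libraries held 4.03, 4.54, 7.05 and 5.24 CPM, and QZ1-lo libraries held 0.298, 0.529, 2.06 and 0.614 CPM. The populations did not overlap, although QZ1-lo replicate 3 stood above the other QZ1-lo libraries. The log2 fold change was 2.57 ± 0.56 (5.93-fold), with an adjusted p of 0.00836 in edgeR. Without QZ1-lo replicate 3 it rose to 3.44, and with limma-voom it was 3.16.

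Higd1b encodes a small mitochondrial membrane protein of the hypoxia-induced gene domain family and is a marker of pericytes in the lung. The gene lies at chr11:102835849-102838040 (plus strand). Counts were 24, 26, 29 and 15 in QZ1-hi and 17, 10, 0 and 1 in QZ1-lo, equal to 1.02, 1.28, 1.68 and 0.894 CPM and to 0.507, 0.407, 0 and 0.0409 CPM. QZ1-lo replicates 3 and 4 lay under the floor of 3 counts. The groups did not overlap, with a two-sided exact permutation p of 0.0286, but the log2 fold change of 2.31 ± 0.96 had an adjusted p of 0.133 in edgeR. It was 2.997 without QZ1-lo replicate 1, again without passing the test. With scaling by library size alone the groups overlapped, since the lowest QZ1-hi library (0.590 CPM) lay under the highest QZ1-lo library (0.685 CPM).

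To compare levels between genes, CPM were divided by exon length in kb. In QZ1-hi, Cd248 (29.0 ± 14.6 CPM per kb, SD, n = 4), Mcam (24.4 ± 9.32) and Nes (24.2 ± 8.90) were the highest and their ranges overlapped. Des followed at 10.4 ± 4.13 CPM per kb, with a range apart from those above and below it. Abcc9 (1.84), Kcnj8 (1.58), Higd1b (1.44), Trpc6 (1.03) and Cspg4 (0.706) formed a lower series in which neighbours overlapped. Rgs5 was the lowest at 0.211 ± 0.184 CPM per kb, apart from Cspg4. Of these, the levels of Abcc9 and Kcnj8, which encode subunits of the same channel, differed by less than their spread.

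The order differed in QZ1-lo. Mcam stood alone at the top with 14.4 ± 5.33 CPM per kb, followed by Nes (3.29), Cd248 (1.93) and Des (1.67), whose neighbouring ranges overlapped. The remaining 6 members lay between 0.337 CPM per kb for Cspg4 and 0.0475 for Rgs5, again with overlapping neighbours. Abcc9 went from the fifth place in QZ1-hi to the ninth in QZ1-lo.

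**Figure D3:**
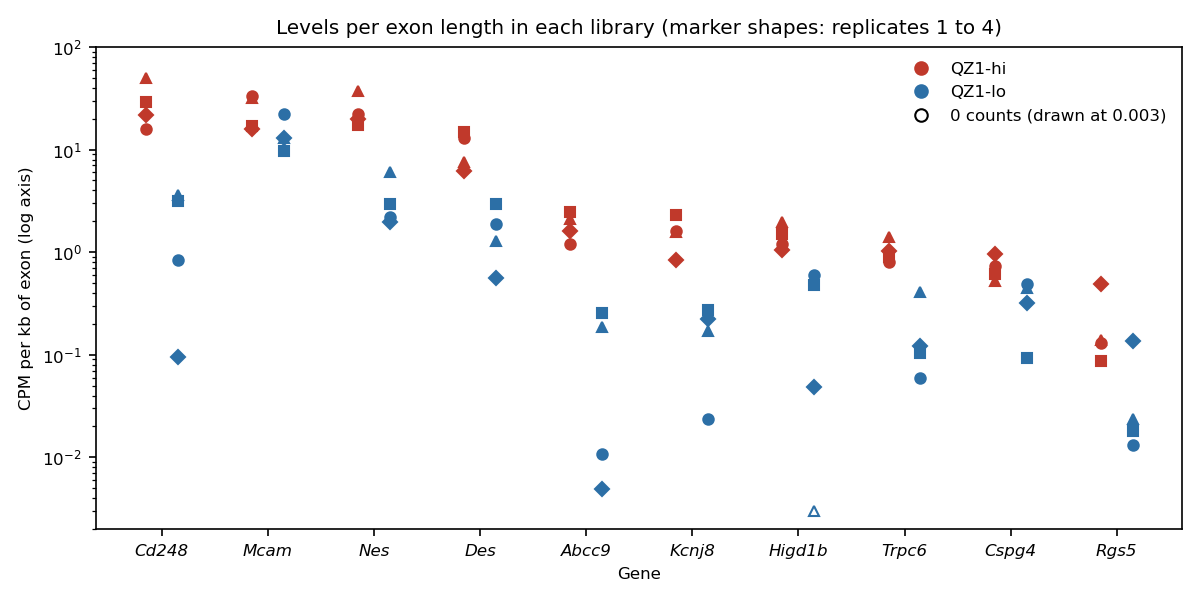
CPM per kb of exon (vertical log axis) of the 10 pericyte marker genes, ordered by their mean in QZ1-hi, in each QZ1-hi (red) and QZ1-lo (blue) library. An open symbol at 0.003 marks the QZ1-lo library with 0 counts of Higd1b. The members span from Cd248 at 29.0 to Rgs5 at 0.211 in QZ1-hi.

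No single library carried the group. QZ1-hi replicate 3 was the highest QZ1-hi library for 4 members and replicate 4 the lowest for 4. Among QZ1-lo libraries, replicate 4 was the lowest for 4 members, and replicate 3 was the highest for Cd248, Nes and Trpc6. The summed level of the 10 members was 294 to 539 CPM in QZ1-hi and 64.0 to 106 CPM in QZ1-lo.

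Relatives of the members from the same protein families were examined as a reference. Of 25 listed, 16 could be tested, 5 were called higher, 2 lower and 9 not called, and their median log2 fold change was 0.10. Over all genes tested, 9.88% were called higher and 8.21% lower. Kcnj11 and Abcc8 form the corresponding potassium channel of beta cells and neurons. Kcnj11 was at 0.254, 0.445, 0.231 and 0.179 CPM in QZ1-hi and at 0.835, 1.83, 0.543 and 0.573 CPM in QZ1-lo. Its QZ1-hi levels rest on 6, 9, 4 and 3 counts, with replicate 4 at the floor of 3 counts. Every QZ1-hi library lay below every QZ1-lo library, opposite to Kcnj8, with a log2 fold change of -1.74 ± 0.70 that did not pass the test (adjusted p of 0.121 in edgeR). Abcc8 was at 0.551, 2.32, 0.347 and 2.20 CPM and at 1.85, 2.48, 2.86 and 0.941 CPM, with overlapping groups, a log2 fold change of -0.59 ± 0.66 and an adjusted p of 0.624 in edgeR, and its log2 fold change was -1.20 with scaling by library size alone.

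The C-type lectins related to Cd248 rose with it. Clec14a, Thbd (thrombomodulin, which restrains clotting on endothelium) and Cd93, all known from endothelial cells, had log2 fold changes of 3.50 ± 0.57, 3.04 ± 0.38 and 2.39 ± 0.29. Each had an adjusted p of at most 0.00166 in edgeR. For Clec14a the value was 4.49 without QZ1-lo replicate 3 and 4.13 with limma-voom. The filament genes Synm and Vim, whose products assemble with desmin and nestin, rose as well, with log2 fold changes of 1.45 ± 0.25 and 1.19 ± 0.16 and adjusted p values of 0.00232 and 0.000629 in edgeR. Both values are smaller than those of Des and Nes, a difference that was not tested.

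The other 2 called relatives went the opposite way to the members. Rgs16, a regulator of the same family as Rgs5, fell by 1.61 ± 0.26 on the log2 scale (adjusted p of 0.00166 in edgeR), and it was measured at 6.01 to 14.6 CPM in QZ1-hi and at 24.5 to 34.7 CPM in QZ1-lo. Alcam, an adhesion molecule of the immunoglobulin superfamily like Mcam, fell by 0.82 ± 0.14 (adjusted p of 0.00217 in edgeR). Of the remaining tested relatives of the adhesion, RGS, potassium channel, TRPC and HIG1 domain families, none was called, with log2 fold changes from -1.25 to 1.32.

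**Figure D4:**
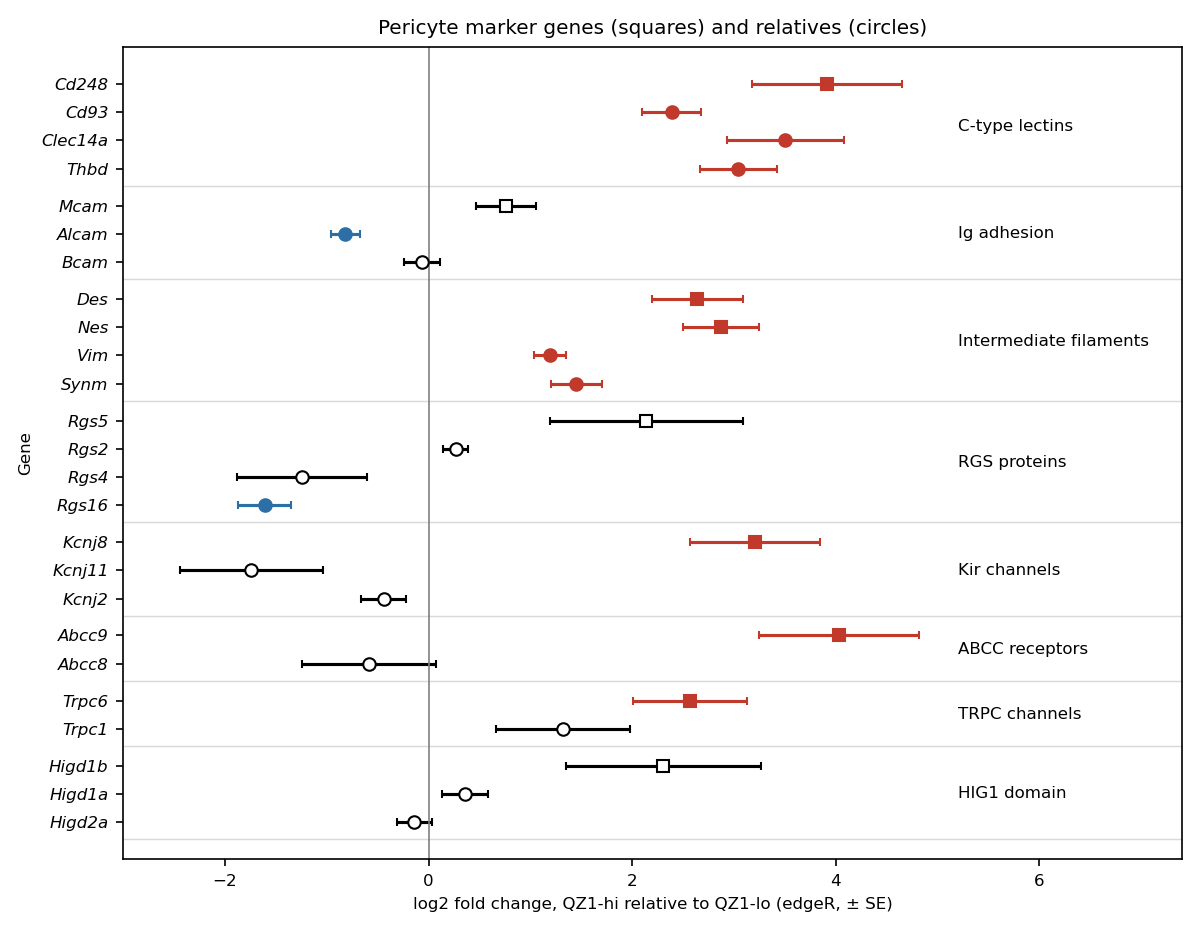
Log2 fold change (horizontal axis, QZ1-hi relative to QZ1-lo, edgeR estimate with bars of 1 SE) of the pericyte marker genes (squares) and of tested relatives from the same family (circles). Cspg4, for which no relative was listed, is not drawn. Red and blue symbols passed an adjusted p of 0.05 as higher and lower, and open symbols did not. Kcnj8 at 3.21 and Abcc9 at 4.03 lie right of 0, and Kcnj11 at -1.74 and Abcc8 at -0.59 lie left of it. The Kcnj11 value rests on 3 to 9 counts per QZ1-hi library.

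Most further genes known from pericytes and other mural cells moved in the same direction as the members. Of 25 listed, 21 could be tested, 14 were called higher and none lower, against 9.88% and 8.21% of all genes tested. The 7 not called were Notch3, Rgs4, Cox4i2, Ndufa4l2, Anpep, Ebf1 and P2ry14, with adjusted p values of 0.0658 to 0.602 in edgeR. The median log2 fold change of those tested was 2.59, with 20 values positive and 1 negative. The negative one was Rgs4, at -1.25 ± 0.64 with an adjusted p of 0.227 in edgeR. DESeq2 called 17 higher and limma 14, and 18 were higher at an unadjusted p under 0.05, with 0 lower by each. Over all genes tested, the shares called higher were 11.6% with DESeq2, 10.9% with limma and 15.4% at an unadjusted p under 0.05. The 4 genes not tested were Vtn, Foxd1, Agtr1a and Art3, and Foxd1 had 0 counts in every library. Summed over the libraries of QZ1-hi and of QZ1-lo, counts were 76 and 1 for Agtr1a, 67 and 11 for Art3, and 10 and 11 for Vtn. Pdgfrb, the receptor that recruits pericytes to vessels, was at 28.8, 21.8, 42.3 and 18.9 CPM in QZ1-hi and at 2.89, 5.04, 7.89 and 0.696 CPM in QZ1-lo. The populations were well apart, with a log2 fold change of 2.76 ± 0.54 and an adjusted p of 0.00459 in edgeR. Pdgfrb too was named by the study from these libraries.

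The largest of the 6 largest changes among the called genes of this list was that of Gucy1b1 (3.71 ± 0.68), a subunit of the nitric oxide receptor guanylate cyclase. Next were Cygb (3.55 ± 0.77), a globin of perivascular stromal cells, and Gja4 (3.49 ± 0.50), a connexin of arterial vessels. Postn (3.26 ± 0.48), a matricellular protein, and the transcription factors Tbx2 (3.08 ± 0.22) and Foxf2 (3.03 ± 0.53) followed. The adjusted p values of these 6 genes were between 7.47e-05 and 0.00797 in edgeR. Gucy1b1 was 4.45 without QZ1-lo replicate 2 and 4.79 with limma-voom, Cygb was 4.15 without QZ1-lo replicate 3 and 4.87 with limma-voom, and Postn was 2.63 without QZ1-hi replicate 3. Notch3, the Notch receptor of mural cells, was not among the genes called. It was measured at 8.26, 7.61, 8.33 and 5.66 CPM in QZ1-hi and at 4.14, 5.78, 10.8 and 2.50 CPM in QZ1-lo, overlapping, with a log2 fold change of 0.36 ± 0.39 and an adjusted p of 0.602 in edgeR. Its sign depended on the scaling, since it was -0.08 with library size alone.

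Markers of other cell types moved with the pericyte markers, and their part in the members' differences was not tested. For these and the following cell type lists, the shares over all genes tested were 9.88% called higher and 8.21% called lower. All 12 endothelial genes were called higher, and their summed level was 1202 to 2763 CPM in QZ1-hi and 123 to 383 CPM in QZ1-lo, with QZ1-lo replicate 3 the highest of the latter. Pecam1, Cdh5 and Tek of this list had log2 fold changes of 3.27 ± 0.52, 3.54 ± 0.50 and 3.79 ± 0.43. Without QZ1-lo replicate 3 those of Pecam1 and Cdh5 were 4.05 and 4.203. Of 13 tested fibroblast genes, 10 were higher and none lower (1 at an unadjusted p under 0.05, 0 with DESeq2 or limma), and the list summed to 2030.1 to 3393 CPM against 569 to 1040.3 CPM. Col1a1, Col1a2 and Pdgfra had log2 fold changes of 3.26 ± 0.54, 3.54 ± 0.67 and 3.38 ± 0.49, and that of Col1a2 was 4.33 with limma-voom. The median log2 fold changes were 3.31 for endothelial genes, 3.26 for fibroblast genes and 2.60 for the pericyte markers, and whether they differ was not tested.

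Smooth muscle, which shares Des with pericytes, was less uniform. Of 11 tested smooth muscle genes 4 were higher and 2 lower, with a summed level of 123 to 194 CPM in QZ1-hi and 66.3 to 114 CPM in QZ1-lo. Acta2 encodes smooth muscle actin, and the study lists it among its markers of pericytes as well as of smooth muscle. Its levels were 21.2, 12.7, 12.1 and 10.8 CPM against 9.42, 6.02, 11.3 and 6.63 CPM. Acta2 was not called, with a log2 fold change of 0.77 ± 0.27 and an adjusted p of 0.0783 in edgeR. It passed the threshold with DESeq2 (adjusted p of 0.0481), with limma-voom (0.0377) and without QZ1-lo replicate 3 (0.0444). Tagln was higher with 2.50 ± 0.65 and an adjusted p of 0.0199 in edgeR, a call that was lost without QZ1-hi replicate 2, without QZ1-hi replicate 3 or without QZ1-lo replicate 1, at log2 fold changes of 2.34, 2.27 and 2.41 and adjusted p values of 0.0517, 0.0593 and 0.0543. Without QZ1-lo replicate 2 its log2 fold change was 3.45. The contractile marker Cnn1 was called lower (adjusted p of 0.0118 in edgeR), with 1 count in all QZ1-hi libraries together and 56 counts in all QZ1-lo libraries.

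Mesothelial genes were higher (3 of 3, and 2 with DESeq2 and 2 with limma), with summed levels of 29.7 to 208 CPM in QZ1-hi and 5.44 to 27.5 CPM in QZ1-lo. The 208 CPM came from QZ1-hi replicate 2, and the other QZ1-hi libraries held 29.7 to 55.7 CPM. Only 1 of the 3 had groups without overlap and higher in QZ1-hi, as had 11.9% of all genes tested. Epithelial genes were mostly lower, 8 of 12 with 1 higher, but their summed levels overlapped at 5390.2 to 9663 CPM and 6195 to 9259 CPM. Epcam, Cdh1 and Nkx2-1 of this list had log2 fold changes of -1.17 ± 0.19, -1.34 ± 0.18 and -0.90 ± 0.19. The gene called higher was Sftpc, at a mean of 4064 CPM in QZ1-hi and 2371 CPM in QZ1-lo with overlapping groups. Its log2 fold change was 0.78 ± 0.21, with an adjusted p of 0.0231 in edgeR. Of the 12 epithelial genes, 3 had a positive and 9 a negative fold change. Of 7 tested hematopoietic genes 0 were called by edgeR, DESeq2 or limma and 0 had an unadjusted p under 0.05, with summed levels of 510.0 to 1045 CPM and 391.8 to 778 CPM. Ptprc, the gene of CD45, against which the cells were sorted, was present at 131 ± 64.2 CPM in QZ1-hi and 125 ± 30.0 CPM in QZ1-lo (SD, n = 4). Genes of striated muscle, which shares Des, were called lower in 1 of 6 tested and higher in none, a lower call that DESeq2 also made and limma did not (1 and 0 lower), with summed levels of 21.6 to 28.04 CPM and 28.2 to 44.7 CPM. Schwann cell genes were called lower in 1 of 3 tested and higher in 0, also with DESeq2 and limma, with summed levels of 25.3 to 35.2 CPM and 39.8 to 55.0 CPM, and Cdh19, one of their defining markers, had 0 counts in every library.

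**Figure D5:**
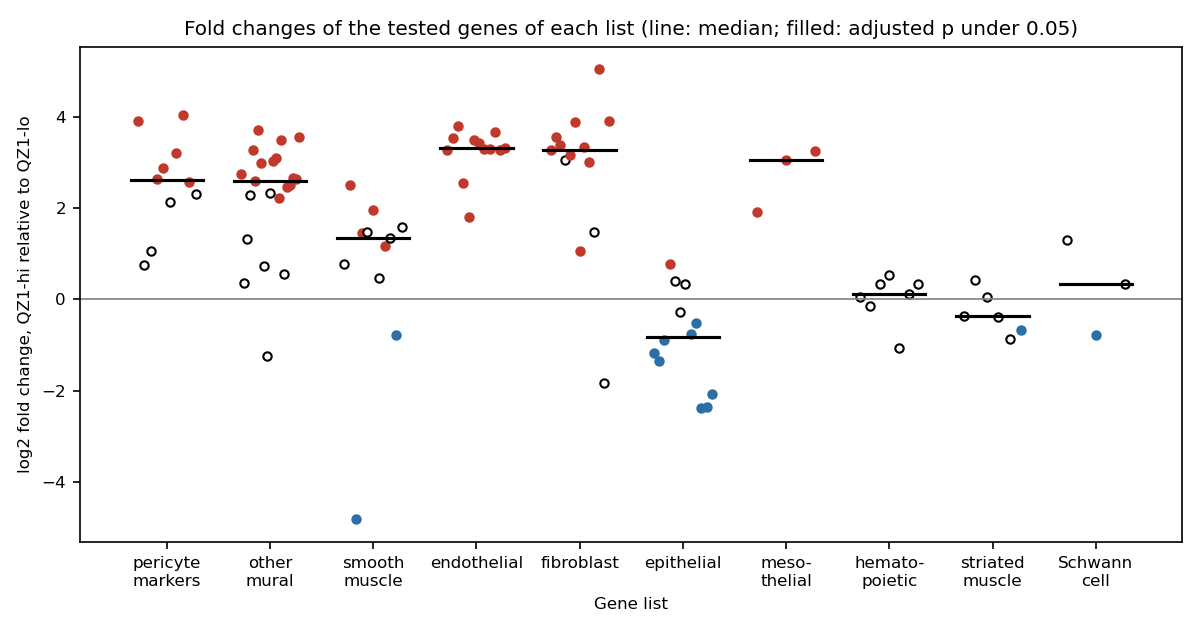
Log2 fold change (vertical axis, QZ1-hi relative to QZ1-lo) of the tested genes of the pericyte markers and of 9 other gene lists, with the median as a line. Red and blue points passed an adjusted p of 0.05 in edgeR as higher and lower, and open points did not. The pericyte markers have a median of 2.60, the other mural genes of 2.59, the endothelial genes of 3.31 and the epithelial genes of -0.83. The lowest point is Cnn1, whose fitted value depends on a QZ1-hi level near 0.

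Genes outside all lists that most resembled the mean of the pericyte markers were sought within populations. For this, log2 CPM were centred on the mean of each population, so that the difference between QZ1-hi and QZ1-lo did not enter, and were correlated with the mean of the 10 members over the 8 libraries. The closest 5 were Selenom (Pearson r of 0.987), Arsi (0.987), Pknox2 (0.986), Mast4 (0.983) and Mfap4 (0.982). These values are a description over 8 libraries that share their depth and scaling, and the 5 genes are the extreme of 15583. Mfap4, a microfibril-associated glycoprotein of elastic vessels and airways, had a log2 fold change of 3.59. Its mean level was 30.1 CPM in QZ1-hi and 2.49 CPM in QZ1-lo. The log2 fold changes of Selenom, Arsi, Pknox2 and Mast4 were 2.61, 2.37, 3.13 and 0.56, and Arsi was not called (adjusted p of 0.0994 in edgeR). The mean does not stand for each member, since the members did not all vary together within populations. Pearson r between 2 members ran from -0.857 for Des and Rgs5 to 0.887 for Cd248 and Abcc9.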

How the data were processed

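RNA of cells sorted from Eml4-Alk lungs was measured in 4 QZ1-hi and 4 QZ1-lo libraries (SMARTer stranded total RNA kit, NextSeq). The authors deposited raw counts per gene for 27179 Entrez Gene identifiers, made from BAM files with Rsubread against mm10 and not normalized. The aligner and the strand setting are not given in the sources used here. The study's own comparison used DESeq2. Symbols came from RefSeq GRCm38.p6 (25275 identifiers matched), and coordinates and exon lengths came from GENCODE M21 on the same build.

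The deposited counts were fitted with edgeR 4.0.16 in R 4.3.3 (TMM, filterByExpr with a minimum count of 10 and a minimum total of 15, quasi-likelihood F test, Benjamini-Hochberg adjustment over 15583 genes). Standard errors were derived from each log2 fold change and its F statistic. The common dispersion was 0.113. Single genes were also compared by two-sided exact permutation over all 70 assignments of the 8 libraries. Floors cover counting error only, since reads carry no molecular identifiers. No duplicate libraries were found: a chi-square of counts per degree of freedom was 32.9 to 177 within populations. The scripts were tested on simulated data. The 10 members and all lists were chosen with earlier results of these data known. Named were all members and the largest called changes of the mural and related genes (up to 6 per direction). Pdgfrb, Acta2, Notch3, Kcnj11 and Abcc8 were named with them, as were up to 3 genes of other lists. The 5 genes most like the mean of the members were also named. Rgs4, Cox4i2, Ndufa4l2, Anpep, Ebf1, P2ry14, Sftpc, Cdh19 and the 4 mural genes that were not tested were named after their values were seen. These genes, and the 5 most like the mean, are not part of the counts over named genes given below. Alternatives were DESeq2 1.42.0, limma 3.58.1 (voom with sample weights), other scalings, filters, shrinkage and threshold, and each library left out in turn.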

Additional observations from a re-analysis of the deposited data

Results flagged for a closer look

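Among genes named here, 6 sets of 4 libraries held 1 library whose gap to its neighbour took up most of the range of the set (above Dixon's critical ratio for 4 values), a pattern that chance gives in about 1 of 20 sets, and 84 sets were examined. For Rgs5, replicate 4 stood out in both populations, at 2.20 CPM in QZ1-hi, where the other libraries held 0.395 to 0.636 CPM, and at 0.614 CPM in QZ1-lo, where the others held 0.0596 to 0.109 CPM. Clec14a, the endothelial relative of Cd248, was at 114 CPM in QZ1-hi replicate 3 and at 54.7 to 63.4 CPM in the other QZ1-hi libraries. Pecam1 was at 68.9 CPM in QZ1-lo replicate 3 and between 12.2 and 21.7 CPM in the 3 others. Alcam was at 330.2 CPM in QZ1-lo replicate 1, where the others held 277 to 286 CPM. Cnn1 was at 0.0578 CPM, a single count, in QZ1-hi replicate 3 and at 0 in the other QZ1-hi libraries. What sets these libraries apart was not tested.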

How the results depend on the processing

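Of 165 values of the members under alternative settings, 163 kept their direction and their side of the threshold, and the other 2 gained a call, Mcam without QZ1-lo replicate 1 and Rgs5 without QZ1-lo replicate 4. Of the 10 members, 6 to 7 were called with 1 library left out and 6 under the other settings, except with at least 10 counts required in every library, where 3 were called because 5 of the 10 could be tested. That filter left 7 of the other mural genes called higher. Scaling by library size alone moved the median of all genes from 0.02 to -0.44 and gave 882 genes higher and 2509 lower in place of 1540 and 1280, 1 other mural gene lower and 4 relatives lower. The stricter threshold of 0.01 gave 902 higher and 665 lower genes. Between 8 and 9 members had groups without overlap when 1 library was left out, and 6 had with scaling by library size alone. Of 537 values of other named genes, 523 kept their call, 5 lost it, 3 gained one and 6 changed sign without being called: Notch3 was -0.079 with library size alone, and Ptprc was -0.12 with limma-voom, -0.49 with library size alone and between -0.30 and 0.26 with 1 library left out (-0.30 without QZ1-hi replicate 4, -0.0033 without QZ1-lo replicate 1 and -0.06 without QZ1-lo replicate 3). The cause was not tested. With 7 libraries an exact permutation test has 35 assignments in place of 70. No paired analysis was possible because the labels carry no replicate or mouse number that QZ1-hi and QZ1-lo libraries share. Among the members, Rgs5, Higd1b, Kcnj8 and Abcc9 had QZ1-lo libraries at or under 3 counts, and their relative Kcnj11 had a QZ1-hi library at 3 counts.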
